A study of Homo sapiens with 79 samples.

Results

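The genes described are 7 genes that mark bipolar cells of the retina, taken as named rows out of the 24414 genes of the table: VSX1, LHX4, GRM6, TRPM1, PRKCA, CABP5 and GRIK1. They were taken by name, with earlier results of these data known, and each was found in 1 row. The cells came from retinal organoids, layered aggregates that resemble developing retina, grown from H9, an established human embryonic stem cell (hESC) line, carrying a green fluorescent reporter of the photoreceptor gene CRX. Organoids of 60, 90 and 200 days of differentiation were dissociated and captured as single cells on Fluidigm C1 chips, with 1 chip each for day 60 and day 90 and 2 chips, a and b, for day 200. All groups shared 1 line and 1 culture protocol, with 10 µM Y27632 in the first 48 hours and 10% foetal calf serum, T3 at 40 ng/ml, taurine at 0.1 mM and retinoic acid at 0.5 µM from day 18. As far as the labels say, the groups differ by age and chip, and they do not say whether the 2 day 200 chips hold separate differentiations. By the study's methods, the day 90 chip was run first with more spike-in RNA and a looser filter on spike-in reads than the other chips, and day 60 had a lower read minimum per cell, so these settings cannot be told apart from age.

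The table holds read counts of 1976 cells, 578 of day 60, 661 of day 90, 356 of chip a and 381 of chip b. The 79 samples are chip columns, 19 at day 60 and 20 on each other chip, with totals from 3414268 to 7999822 reads. Columns share a chip and cells share a column, so neither was taken as a replicate, and with 1 chip at day 60 and at day 90 no test between days was made. Cells carry 1 of 40 barcodes, of which 38 occurred on all 4 chips, since a barcode marks a position within a column and not a cell. A level is given in CPM, the reads of a gene per 1000000 reads of the summed cells of a chip. A share of cells was counted after each cell was thinned to 50000 reads, which left out 6 cells of day 90, and a cell with at least 3 reads at that depth, or 60 CPM, is said to have clear reads of a gene. Ranges in parentheses are exact 95% intervals for counting error alone, as the reads carry no molecular identifiers and 1 molecule can give many reads. On each chip, genes read in fewer than 5 cells stand almost always at 0 in the table, so a listed 0 allows up to 4 cells, or 0.692% of the cells of day 60.

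Bipolar cells carry the signal of rods and cones to the inner retina. ON bipolar cells sense glutamate through the receptor encoded by GRM6, which acts through a G protein on the cation channel encoded by TRPM1, and rod bipolar cells further hold protein kinase C alpha, encoded by PRKCA. OFF bipolar cells use ionotropic kainate receptors such as that of GRIK1. The homeobox genes VSX1 and LHX4 act in the making of bipolar cells, in VSX1 mainly of cone bipolar cells, and CABP5 encodes a calcium-binding protein of bipolar cells. Several of these genes are known elsewhere too: TRPM1 was first described in pigment cells, PRKCA is active in many tissues, and bipolar cells and photoreceptors share precursors that hold OTX2.

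At day 90, 6 of the 7 genes stood at least 2-fold above day 60, against 12.3% of the 16689 genes with a mean of at least 1 CPM, and GRIK1 did not. With the day 200 chips summed, all 7 stood at least 2-fold above day 60, against 13.1% of the genes. On chip a alone it was all 7, against 14.2% of the genes, and on chip b alone 5, against 12.8%. The 5 genes that passed on both chips were GRM6, CABP5, PRKCA, TRPM1 and LHX4, against 7.18% of the genes. Folds are those of CPM + 1. All 7 genes passed the minimum of 1 CPM. CABP5 and TRPM1 were listed at 0 at day 60, so no fold from day 60 is given for them. The counts above include both with the listed 0 taken as 0 CPM, although it allows reads in up to 4 cells. Of the other 5 genes, VSX1, GRM6, PRKCA and LHX4 passed at day 90. All 5 passed on chip a, and GRM6, PRKCA and LHX4 on chip b. Over these 5 genes the median log2 difference from day 60 was 1.99 at day 90, and 2.53 and 2.35 on chips a and b, beside 0.01, 0 and 0.06 over all genes. From day 90 to day 200 the genes parted: on both day 200 chips CABP5 was higher and TRPM1 lower than at day 90, by log2 differences of 2.47 and 1.85 for CABP5 and of -0.94 and -2.26 for TRPM1.

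**Figure D1:**
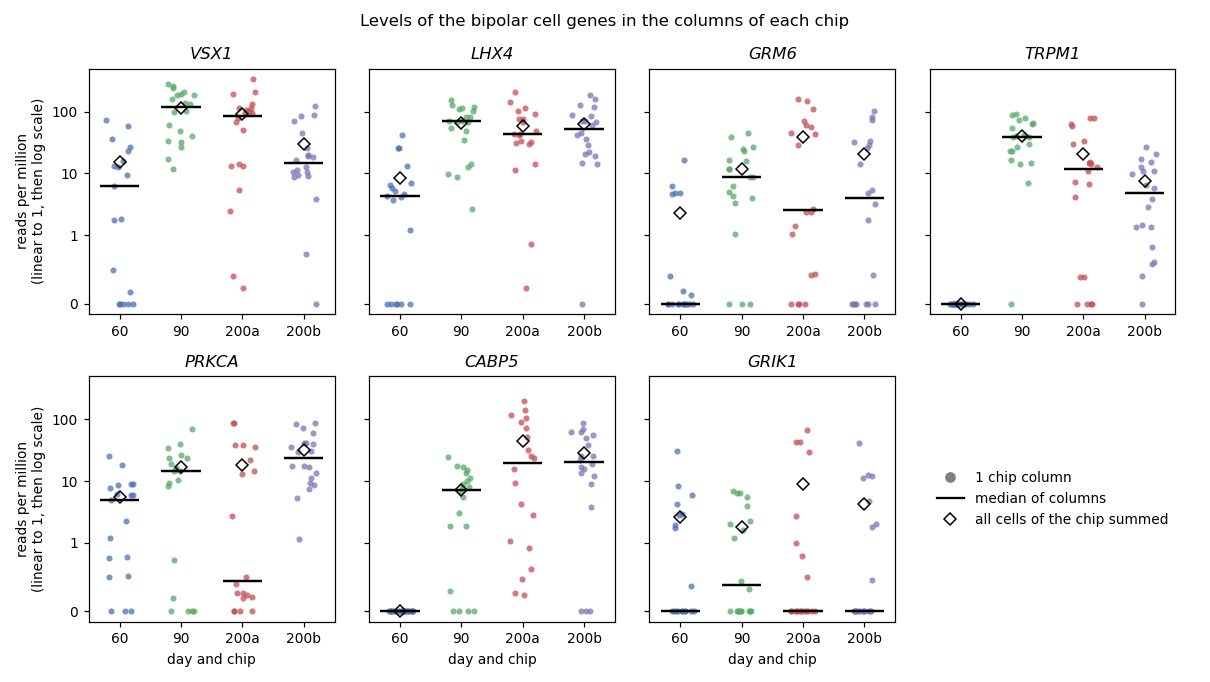
Level of each gene in CPM (linear up to 1, log scale above) in every chip column by day and chip; points are columns, lines are medians of the columns and diamonds are the summed cells of the chip. Day 60 has the lowest median for each gene except GRIK1 and PRKCA, CABP5 and TRPM1 are listed at 0 there, and the columns of each chip spread widely.

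Per kilobase of exons, the order of the summed levels at day 90 was VSX1 with 32.2 CPM per kb, LHX4 with 10.9, TRPM1 with 5.51, CABP5 with 3.44, PRKCA with 1.51, GRM6 with 1.44 and GRIK1 with 0.28. This order is that of the summed cells, and the columns of each gene spread widely around it. Neighbours in it, such as PRKCA and GRM6, were closer to each other than the spread of their columns. At day 200 CABP5 (17.6 CPM per kb) and VSX1 (17.4) led, and their order differed between the chips, with VSX1 at 25.7 and CABP5 at 21.2 on chip a and VSX1 at 8.44 and CABP5 at 13.6 on chip b. LHX4 followed with 10.2, then GRM6 with 3.63, PRKCA with 2.22, TRPM1 with 1.95 and GRIK1 with 1.03. Reads of LHX4 and of GRIK1 can include those of overlapping genes on the other strand, ACBD6 and BACH1, since no strand setting is given for the counting.

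VSX1, on chromosome 20 (25070885 to 25082141, minus strand, GRCh38, as are all positions here), was read at 15.2 CPM at day 60 (14.4 to 15.9), 116 at day 90 (114 to 118), 92.4 on chip a (90.5 to 94.3) and 30.4 on chip b (29.2 to 31.5). Its columns ranged from 0 to 72.7 CPM at day 60 with a median of 6.26, from 11.6 to 277 at day 90 with a median of 119, from 0.23 to 339 on chip a with a median of 86.8, and from 0 to 126 on chip b with a median of 14.7. The columns of all chips overlapped, and the level of chip a was 2.98-fold that of chip b, while the summed day 200 chips stood at 0.54 of day 90. Clear reads were held by 19 cells at day 60 (3.29%, 1.99% to 5.09%), 81 at day 90 (12.4%, 9.94% to 15.1%), 32 on chip a (8.99%, 6.23% to 12.5%) and 29 on chip b (7.61%, 5.16% to 10.7%). These shares were alike on the day 200 chips, while 5 cells held 49.4% of the VSX1 reads of chip a and 1 cell held 1675 reads.

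LHX4, on chromosome 1 (180230264 to 180278984, plus strand), stood at 8.34 CPM at day 60 (7.80 to 8.91), 66.5 at day 90 (65.02 to 68), 59.8 on chip a (58.3 to 61.3) and 64.2 on chip b (62.6 to 65.9). Its column medians were 4.35, 69.6, 44.04 and 52.8 CPM, with the highest column of day 60 at 42.6 and the lowest of the later chips at 2.63, 0.23 and 0. Its level differed little between day 90 and the day 200 chips, with log2 differences of -0.15 and -0.05 from day 90. Clear reads were in 2.60% of the cells at day 60 (15 cells), 13.1% at day 90 (86 cells), 10.1% on chip a (36 cells) and 13.6% on chip b (52 cells).

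VSX1 and LHX4 formed the most frequent pair of the genes on every chip. At day 90, 43 of the 81 cells with clear reads of VSX1 had clear reads of LHX4 (53.1%, 41.7% to 64.3%), against 7.49% of the other cells (5.47% to 9.96%). On chip b it was 17 of 29 cells (58.6%, 38.9% to 76.5%) against 9.94%, and at day 60 it was 4 of 19 (21.1%, 6.05% to 45.6%) against 1.97%. On chip a it was 8 of 32 cells (25%, 11.46% to 43.4%) against 8.64% (5.82% to 12.2%), where the intervals meet. By the mean r over the 3 later chips, VSX1 and LHX4 were each other's nearest gene of 13434 considered, with a Pearson r across the cells of 0.50 over 661 cells at day 90, 0.15 over 356 cells on chip a and 0.46 over 381 cells on chip b, though on each of these chips taken alone another gene had a higher r with VSX1. Such correlations describe cells that share libraries and columns, and no p is given.

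The cells with both homeobox genes also held OTX2, which specifies photoreceptor and bipolar fates, in 43 of 43 cells at day 90 and in 7 of 8 and 17 of 17 on chips a and b, beside 46.9%, 34.1% and 25.6% of the cells with neither. NEUROD4, a basic helix-loop-helix gene of retinal neurons, was read clearly in 74.4% of them at day 90, and in 37.5% and 76.5% on chips a and b, beside 15.3%, 13.2% and 9.46% of the cells with neither. After LHX4, the genes nearest to VSX1 were OTX2, with a mean r of 0.35 over the 3 later chips, and NETO1, an auxiliary subunit of kainate receptors, with 0.34. NETO1 had clear reads in 16 of 81 VSX1 cells at day 90 (19.8%, 11.7% to 30.1%) against 1.22% of the others (0.49% to 2.50%), and in 7 of 29 on chip b (24.1%, 10.3% to 43.5%) against 1.42%, while on chip a it was 4 of 32 (12.5%, 3.51% to 28.99%) against 1.85% (0.68% to 3.99%), where the intervals meet. CRX, which was itself scarce, had clear reads in 6 of 81 VSX1 cells at day 90 and in 1 of 32 and 0 of 29 on chips a and b, where the count of 0 allows a share of up to 10.3% (3 cells of the total, the limit used for each count of 0). Next to LHX4 after VSX1 stood OTX2, with a mean r of 0.36, and NEUROD4, with 0.36.

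**Figure D2:**
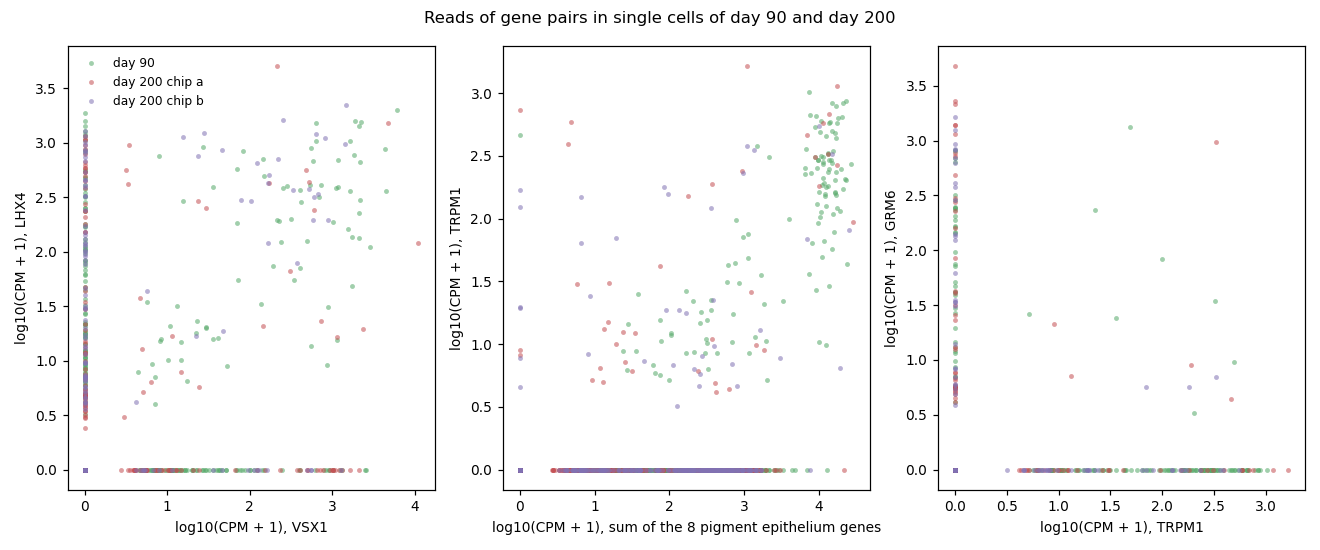
Single cells of day 90 and day 200 by log10(CPM + 1) of VSX1 against LHX4 (left), of the summed pigment epithelium genes against TRPM1 (middle) and of TRPM1 against GRM6 (right); each point is 1 cell, coloured by chip. Cells high in both genes are frequent on the left, TRPM1 is high mainly in cells with high pigment genes, and most GRM6 cells lie at 0 of TRPM1. At full depth 8 of 46 GRM6 cells at day 90, 5 of 43 on chip a and 3 of 30 on chip b had a TRPM1 read. Of all cells it was 18.8%, 11.0% and 9.97%.

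The question of photoreceptor genes in VSX1 cells was put to cells with a read of at least 3 of 8 cone genes or at least 3 of 9 rod genes, called photoreceptor-list cells. These were 19 of 578 cells at day 60 and 227 of 655 at day 90, and 115 of 356 and 67 of 381 on chips a and b. The limit was not a gap: at day 90, 68 cells had just 3 genes and 108 just fell short. It asks for 1 read a gene, so the list is not limited to photoreceptors. Of the cells of day 90 with clear reads of at least 4 pigment epithelium genes, 25 of 97 were also on it. For at least 4 glia genes it was 46 of 209, and for at least 4 ganglion and early neuron genes 38 of 69. A VSX1 read was found in 50 of the 227 photoreceptor-list cells of day 90 (22.03%, 16.8% to 27.99%) and in 16.6% of the other cells (13.2% to 20.5%). On chip a it was 10.4% (5.51% to 17.5%) against 16.6% (12.1% to 21.9%), and on chip b 16.4% (8.49% to 27.5%) against 8.60% (5.74% to 12.3%). At day 60 a VSX1 read was found in 15.8% of the 19 photoreceptor-list cells, beside 5.02% of all cells of that day (3.39% to 7.13%). Of these 19 list cells, 15 also had clear reads of at least 4 ganglion and early neuron genes. Only 1 of them had reads of at least 3 rod genes. VSX1 was thus read in cells with cone or rod genes at every age, with intervals that met those of the other cells on each chip and with the larger share on opposite sides on the 2 day 200 chips. In cells of a matrix list (at least 4 of 8 genes such as COL1A1 and DCN with clear reads), which should lack VSX1, a read was found in 5 of 58 cells at day 90 (8.62%, 2.86% to 19.0%) and 3 of 46 on chip b (6.52%, 1.37% to 17.9%). Before thinning, the median depth at day 90 was 176768 reads in photoreceptor-list cells and 160677 in matrix-list cells.

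Cells with clear reads of at least 3 of the 6 precursor genes OTX2, CRX, PRDM1, NEUROD1, NEUROD4 and RCVRN held more of several genes. These precursor-list cells were 46, 194, 64 and 75 in order of age and chip. On each of the 3 later chips GRM6, CABP5 and LHX4 were at least 2-fold higher in them than in the other cells, 3 of the 7 genes, against 1.92% of all genes. VSX1 passed this limit at day 90 and on chip b, with log2 differences of 2.57 and 1.77, but not on chip a with 0.47. At day 90 VSX1 had clear reads in 53 of 194 precursor-list cells (27.3%, 21.2% to 34.2%) against 6.07% of the others, and LHX4 in 60 (30.9%, 24.5% to 37.9%) against 5.64%. In photoreceptor-list cells, 1 of the 7 genes, CABP5, was at least 2-fold higher than in the other cells on each later chip, beside 2.04% of all genes.

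**Figure D3:**
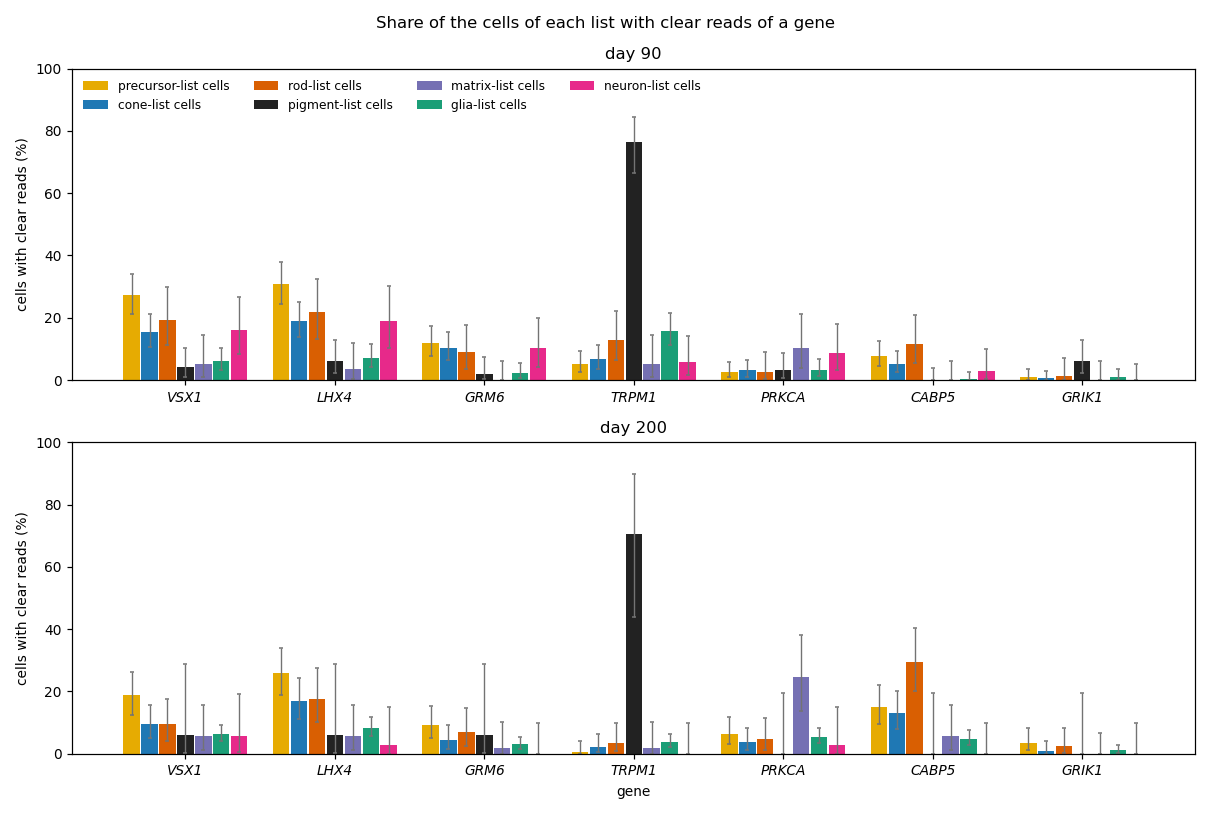
Share of the cells of each list with clear reads of a gene at day 90 (top) and day 200 (bottom), in percent; bars are gene lists of a cell type, and lines are exact 95% intervals. TRPM1 stands out in pigment-list cells with 76.3% at day 90 and 70.6% at day 200, CABP5 has its tallest bar in rod-list cells and PRKCA in matrix-list cells.

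GRM6, the glutamate receptor of ON bipolar cells on chromosome 5 (178977587 to 178996206, minus strand), stood at 2.26 CPM at day 60 (1.98 to 2.57), 11.9 at day 90 (11.3 to 12.6), 38.5 on chip a (37.3 to 39.8) and 21.0 on chip b (20.0 to 21.9). Its column medians stayed low, at 0, 8.90, 2.53 and 4.00 CPM, with highest columns of 16.4, 45.2, 162 and 102, and 11 of 19, 3, 4 and 7 columns without a read. Most reads came from few cells: 5 cells held 59.9% of those of chip a and 58.9% of those of chip b. Clear reads were found in 5 cells at day 60 (0.87%), 25 at day 90 (3.82%, 2.48% to 5.58%), 17 on chip a (4.78%, 2.81% to 7.54%) and 15 on chip b (3.94%, 2.22% to 6.41%), so the share of cells was alike on the later chips while the summed level was not. In these cells the median level was 204 CPM at day 90, and 722 and 406 CPM on chips a and b.

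GRM6 cells held genes of photoreceptor and bipolar precursors. OTX2 had clear reads in 23 of 25 at day 90 (92%, 73.97% to 99.0%) against 53.8% of the other cells, in 14 of 17 on chip a (82.4%, 56.6% to 96.2%) against 36.3%, and in 10 of 15 on chip b (66.7%, 38.4% to 88.2%) against 33.1%. NEUROD4 was read clearly in 72%, 52.9% and 46.7% of them, against 20.3%, 15.0% and 17.8%. The genes nearest to GRM6 across cells were VSTM2A with a mean r of 0.26, NEUROD4 with 0.25 and CADPS with 0.22; the value of VSTM2A was -0.02 at day 90, so it rests on the day 200 chips. At day 90, 23 of 25 GRM6 cells lay among the precursor-list cells and 21 among the photoreceptor-list cells, against 8 and 7 of 17 on chip a and 5 and 3 of 15 on chip b. The log2 difference of GRM6 between photoreceptor-list cells and the others was 3.17 at day 90 and 1.73 on chip a, but -0.50 on chip b. LHX4 had clear reads in 9 of 25 GRM6 cells at day 90 (36%, 17.97% to 57.5%) against 12.2% (9.77% to 15.0%). On chip a it was 2 of 17 (11.8%) against 10.0%. On chip b it was 7 of 15 (46.7%, 21.3% to 73.4%) against 12.3% (9.11% to 16.1%). VSX1 was in 5 of 25, 7 of 17 and 3 of 15 GRM6 cells, against 12.1%, 7.37% and 7.10%. Its intervals met except on chip a (18.4% to 67.1% against 4.83% to 10.7%).

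TRPM1, the channel of the same cascade, lies on chromosome 15 (31001065 to 31161160, minus strand). It was listed at 0 at day 60 and stood at 40.3 CPM at day 90 (39.2 to 41.5), 20.5 on chip a (19.6 to 21.4) and 7.60 on chip b (7.04 to 8.19). Its columns ran from 0 to 93.1 CPM at day 90 with a median of 39.5, from 0 to 80.5 on chip a with a median of 11.9, and from 0 to 26.97 on chip b with a median of 4.83, and they overlapped between the later chips. Clear reads were in 81 cells at day 90 (12.4%, 9.94% to 15.1%), 15 on chip a (4.21%, 2.38% to 6.85%) and 13 on chip b (3.41%, 1.83% to 5.76%).

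These cells were mostly those with pigment epithelium genes. Pigment-list cells (clear reads of at least 4 of TYRP1, PMEL, DCT, TYR, MLANA, BEST1, RPE65 and SERPINF1) were 97 at day 90, and 10 and 7 on chips a and b. TRPM1 had clear reads in 74 of the 97 at day 90 (76.3%, 66.6% to 84.3%) against 7 of the 558 other cells (1.25%, 0.51% to 2.57%), in 8 of 10 on chip a (80%, 44.4% to 97.5%) against 2.02%, and in 4 of 7 on chip b (57.1%, 18.4% to 90.1%) against 2.41%. At day 90, TRPM1 and GRIK1 were at least 2-fold higher in pigment-list cells than in the others, 2 of the 7 genes, against 9.9% of all genes, and the log2 difference of TRPM1 was 6.14. Of the TRPM1 cells, 91.4% at day 90 but 53.3% on chip a and 30.8% on chip b were pigment-list cells. Pigment-list cells made up 14.8% of day 90, 2.81% of chip a and 1.84% of chip b, an order shared with the level of TRPM1, and their part in it was not tested. The genes nearest to TRPM1 were TYRP1, a melanin enzyme, with r of 0.82, 0.52 and 0.36 at day 90 and on chips a and b, BEST1, a chloride channel of pigment epithelium, with 0.82, 0.53 and 0.34, and PMEL, a melanosome protein, with 0.82, 0.42 and 0.37.

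The 250 bases before both RefSeq starts of TRPM1 are shown since its reads went with those of pigment genes, and those of GRM6 since GRM6 belongs to the same cascade and its reads did not. Of the 7 genes, 5 had such a window in the RefSeq table (GRCh38.p14), 7 windows in all, and CABP5 and GRIK1 were not among them. Capitals mark CACATG or its reverse complement CATGTG, a form of the E-box, and TAATCC or GGATTA, a core that OTX2 and CRX can bind, which do not overlap each other. CACATG or CATGTG lies in 9.42% of 35116 such windows and TAATCC or GGATTA in 5.62%. Both motifs were found in the first window of TRPM1, CACATG in the second, and neither in the window of GRM6 or in those of VSX1, LHX4 and PRKCA. A match describes these letters only and is no sign of binding. The windows, each 5′ to 3′ on the minus strand, are at chr15:31161161-31161410 and chr15:31101726-31101975 for TRPM1 and at chr5:178995321-178995570 for GRM6.
TRPM1, upstream start: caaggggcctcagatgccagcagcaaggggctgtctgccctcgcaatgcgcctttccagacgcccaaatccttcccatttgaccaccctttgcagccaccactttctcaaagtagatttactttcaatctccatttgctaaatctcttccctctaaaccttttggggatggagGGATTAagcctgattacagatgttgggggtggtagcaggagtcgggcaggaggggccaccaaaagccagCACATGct
TRPM1, downstream start: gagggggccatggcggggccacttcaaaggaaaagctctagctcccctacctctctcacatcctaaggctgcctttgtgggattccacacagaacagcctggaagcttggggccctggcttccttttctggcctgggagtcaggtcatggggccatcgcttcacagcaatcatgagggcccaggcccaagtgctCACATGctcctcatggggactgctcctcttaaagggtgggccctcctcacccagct
GRM6: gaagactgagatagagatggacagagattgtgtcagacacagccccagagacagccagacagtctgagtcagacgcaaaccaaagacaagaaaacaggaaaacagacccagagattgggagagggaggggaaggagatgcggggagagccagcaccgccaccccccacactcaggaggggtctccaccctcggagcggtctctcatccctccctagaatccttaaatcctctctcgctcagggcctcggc

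Receptor and channel seldom met in 1 cell. Clear reads of both GRM6 and TRPM1 were in 2 cells at day 90 and in 1 and 0 on chips a and b, that is 8% of the GRM6 cells of day 90 (0.98% to 26.03%) and 2.47% of its TRPM1 cells (0.30% to 8.64%). The share of the other cells of day 90 with TRPM1 was 12.5% (10.1% to 15.4%), so GRM6 cells did not hold TRPM1 more often than cells without GRM6. GRM6 with PRKCA was found in 1, 1 and 3 cells, and TRPM1 with PRKCA in 3, 0 and 0. Not 1 of the 1398 cells of the 3 later chips had a read of all 3 ON bipolar genes GRM6, TRPM1 and PRKCA, also at full depth, and at day 60, where TRPM1 is listed at 0, such cells could not be seen. The count of 0 allows a share of up to 0.215% of cells with reads of all 3, and cells whose transcripts were not captured cannot be seen. At full depth GRM6 was read in 6.96%, 12.1% and 7.87% of the cells of day 90, chip a and chip b. For TRPM1 it was 18.8%, 11.0% and 9.97%, and for PRKCA 10.1%, 8.15% and 17.8%. At such shares few cells with all 3 would be met even if the genes were unrelated, so the 0 does not show that they avoid each other.

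Of the ON cascade, 8 partner genes had a row, and GPR179 and GNG13 are not analysed here. At day 90, 3 of the 8 were at least 2-fold above day 60 (GNB3, LRIT3 and RGS9BP), on chip a 5, with PCP2 and RGS11 added, and on chip b 3, while 1, RGS7, was at least 2-fold lower on chip a. Of all genes, 12.3%, 14.2% and 12.8% were at least 2-fold higher on these chips, and 18.2% were lower on chip a. LRIT3 and RGS9BP, a membrane partner of the receptor complex and an anchor of its regulator, were listed at 0 at day 60, as was PCP2. The place of these genes in the counts rests on that listed 0. NYX, which encodes nyctalopin, was read at 0.73 CPM at day 90 and listed at 0 on the other chips. GNAO1, the G protein of the receptor, had clear reads in 3 of 25 GRM6 cells at day 90 (12%, 2.55% to 31.2%) against 7.30%, in 2 of 17 on chip a and in 2 of 15 on chip b. RGS11, the regulator, was read clearly in 3, 1 and 3 of them. GNB3, a G protein subunit shared with cones, was read clearly in 23 of 25 GRM6 cells at day 90 (92%, 73.97% to 99.0%) against 38.1%, but in 6 of 17 on chip a (35.3%, 14.2% to 61.7%) against 38.3%.

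Among 10 other bipolar genes with a row (SCGN, CABP2 and BHLHE23 are not analysed here), 3 of day 90 and 4 of either day 200 chip were at least 2-fold above day 60, against 12.3%, 14.2% and 12.8% of all genes. The 3 of day 90 were IRX6, NETO1 and TMEM215, read there at 14.6, 8.49 and 7.06 CPM. All 3 were listed at 0 at day 60, so their place in these counts rests on that listed 0. IRX5, which was read at day 60, was added on the day 200 chips. ISL1, a gene of ON bipolar cells and of ganglion cells, was at least 2-fold lower on every later chip, with 19.4 CPM at day 60 and 4.16, 7.98 and 7.25 after it. BHLHE22 was so at day 90 and on chip a, with 30.7 CPM at day 60, 11.2 at day 90 and 9.73 and 19.0 on chips a and b. The genes at least 2-fold lower were thus 2, 2 and 1 of the 10, against 8.84%, 18.2% and 8.07% of all genes. The median log2 difference of these 10 genes from day 60 was 0.17, 0.49 and 0.23 on the 3 later chips.

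PRKCA, on chromosome 17 (66302613 to 66810743, plus strand), stood at 5.52 CPM at day 60 (5.08 to 5.99), 16.8 at day 90 (16.1 to 17.6), 18.0 on chip a (17.2 to 18.9) and 32.3 on chip b (31.1 to 33.5). Its column medians were 4.89, 14.6, 0.45 and 23.6 CPM, with highest columns of 25.3, 69.4, 87.9 and 87.9, and the columns overlapped on all chips. Clear reads were in 15 cells at day 60 (2.60%), 28 at day 90 (4.27%, 2.86% to 6.12%), 12 on chip a (3.37%, 1.75% to 5.81%) and 36 on chip b (9.45%, 6.71% to 12.8%). Chip b, with the largest share, also had the largest share of matrix-list cells, 12.1%, against 1.97% on chip a, 8.85% at day 90 and 4.67% at day 60.

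PRKCA was read more in cells with connective tissue genes than in the other cells. It had clear reads in 6 of 58 matrix-list cells at day 90 (10.3%, 3.89% to 21.2%) against 3.69% of the others (2.32% to 5.53%), and on chip b in 11 of 46 (23.9%, 12.6% to 38.8%) against 7.46% (4.89% to 10.8%), with intervals that met at day 90 but not on chip b. Its summed level in matrix-list cells was 69.01 CPM at day 90, and 101 and 77.8 CPM on chips a and b, beside 11.9, 16.4 and 25.9 in the other cells. Of the PRKCA cells, 21.4% at day 90, and 16.7% and 30.6% on chips a and b, were matrix-list cells, and the part of these cells in the level of PRKCA was not tested. The nearest genes were APOD, CXCL12 and PI15, secreted proteins of stromal cells among other types, with mean r of 0.24, 0.22 and 0.21. At day 90 and on chips a and b, r was 0.33, 0.29 and 0.08 for APOD and 0.20, 0.36 and 0.10 for CXCL12. For PI15 it was 0.27, 0.19 and 0.18, and for DCN 0.25, 0.06 and 0.21. DCN, which encodes the matrix protein decorin, was read clearly in 11 of 36 PRKCA cells on chip b (30.6%, 16.3% to 48.1%) against 8.70%.

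CABP5, on chromosome 19 (48029383 to 48044079, minus strand), was listed at 0 at day 60 and stood at 7.21 CPM at day 90 (6.73 to 7.71), 44.5 on chip a (43.2 to 45.9) and 28.5 on chip b (27.4 to 29.6). Its columns ran from 0 to 24.8 CPM at day 90 with a median of 7.19, from 0.23 to 198 on chip a with a median of 19.8, and from 0 to 88.5 on chip b with a median of 20.5. The medians of both day 200 chips lay above that of day 90, and the columns overlapped. Clear reads were in 18 cells at day 90 (2.75%, 1.64% to 4.31%), 20 on chip a (5.62%, 3.47% to 8.54%) and 24 on chip b (6.30%, 4.08% to 9.23%).

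CABP5 was read most often in cells with rod genes. In rod-list cells (a read of at least 3 of 9 rod genes), CABP5 was the only 1 of the 7 genes at least 2-fold higher than in the other cells on each later chip, against 0.923% of all genes. The levels were 30.1 CPM against 3.74 at day 90, 239 against 13.7 on chip a and 213 against 10.8 on chip b. Clear reads were in 9 of 78 rod-list cells at day 90 (11.5%, 5.41% to 20.8%) against 1.56% (0.72% to 2.94%), in 12 of 51 on chip a (23.5%, 12.8% to 37.5%) against 2.62% (1.14% to 5.10%) and in 13 of 34 on chip b (38.2%, 22.2% to 56.4%) against 3.17% (1.59% to 5.60%). The intervals did not meet on any of the 3 chips, and rod-list cells were 50%, 60% and 54.2% of the cells with clear reads of CABP5. The genes nearest to CABP5 were GNAT1, the rod transducin subunit, with r of 0.39, 0.29 and 0.62, NRL, the rod fate gene, with 0.37, 0.40 and 0.50, and MXRA5, a matrix protein, with 0.13, 0.56 and 0.42. NRL had clear reads in 10 of 18 CABP5 cells at day 90 (55.6%, 30.8% to 78.5%) against 12.7%, in 14 of 20 on chip a (70%, 45.7% to 88.1%) against 17.3% and in 14 of 24 on chip b (58.3%, 36.6% to 77.9%) against 8.96%. IMPG2, a gene of the photoreceptor matrix on the cone list, was read clearly in 83.3%, 60% and 75% of them, against 22.8%, 22.9% and 17.1%.

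By clear reads, CABP5 also met VSX1 on each later chip, and GRM6 on chip a alone. Clear reads of CABP5 and VSX1 were together in 9 cells at day 90 and in 3 and 10 on chips a and b, so 9 of 81 VSX1 cells of day 90 held CABP5 (11.1%, 5.21% to 20.0%) against 1.57% of the others (0.72% to 2.96%). On chip b 10 of 29 VSX1 cells did (34.5%, 17.9% to 54.3%) against 3.98% (2.19% to 6.58%), while on chip a it was 3 of 32 (9.38%, 1.98% to 25.0%) against 5.25% (3.09% to 8.27%), where the intervals meet. GRM6 and CABP5 were together in 0, 3 and 0 cells, and 0 of the 25 GRM6 cells of day 90 allows a share of up to 12%. On chip a CABP5 was in 3 of 17 GRM6 cells (17.6%, 3.80% to 43.4%) against 5.01% of the others (2.95% to 7.91%). These intervals meet, and the share was larger than in the VSX1 cells of that chip. The 3 of the 32 GRM6 cells of day 200 with CABP5 (9.38%, 1.98% to 25.0%) gave a share whose interval held that of the cells without GRM6, 5.82%.

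GRIK1, on chromosome 21 (29536933 to 29940033, minus strand), was the lowest of the 7 genes on the 3 later chips. It stood at 2.60 CPM at day 60 (2.30 to 2.93), 1.81 at day 90 (1.57 to 2.07), 9.09 on chip a (8.49 to 9.71) and 4.24 on chip b (3.82 to 4.69). Its column medians were 0, 0.39, 0 and 0 CPM, and 10 of 19, 9, 12 and 12 columns had no read. Clear reads were in 8, 8, 4 and 5 cells, between 1.12% and 1.38% of a chip, and 5 cells held 96.8% of the reads of chip a. At day 90, 6 of the 8 cells lay in the pigment list (75% of them), and the same number held clear reads of TRPM1 (75%, 34.9% to 96.8%), while at day 200 none of the 9 cells held clear reads of TRPM1 or was a pigment-list cell, which allows a share of up to 33.3%. No gene stayed near GRIK1 over the chips: the 3 with the highest mean r, AC007182.2, AL121769.1 and RPS4XP22, had r of 0.61, 0.66 and 0.61 on 1 chip and at most 0.13 on the other chips.

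**Figure D4:**
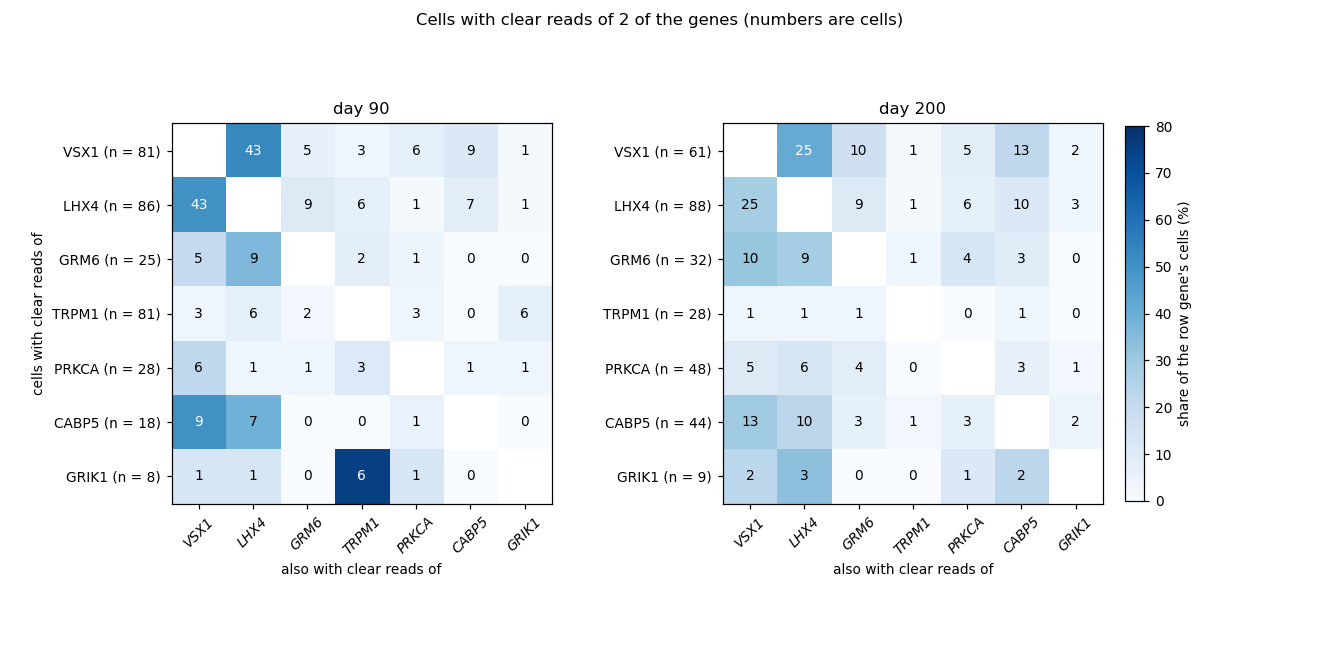
Cells with clear reads of the gene of the row that also had clear reads of the gene of the column, at day 90 (left) and day 200 (right); numbers are cells and colour is the share of the row gene's cells, in percent. VSX1 and LHX4 form the most frequent pair with 43 and 25 cells, and the row of TRPM1 holds at most 6 cells in any column.

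Cells with several of the genes were few. A read of at least 2 genes was found in 9 of 578 cells at day 60 (1.56%, 0.71% to 2.94%), 122 of 655 at day 90 (18.6%, 15.7% to 21.8%), 56 of 356 on chip a (15.7%, 12.1% to 19.9%) and 56 of 381 on chip b (14.7%, 11.3% to 18.7%). The intervals of the later chips met each other and lay above that of day 60. They cover counting error on these chips alone, and with 1 chip at day 60 a difference between ages was not tested. Clear reads of at least 2 genes were in 5, 83, 28 and 34 cells, of at least 3 in 2, 11, 4 and 12, and of 4 in 2 cells of chip b. Of the 29 cells with clear reads of at least 3 genes, VSX1 was in all but 1, and the sets were mostly VSX1 and LHX4 with CABP5 (4 cells at day 90 and 6 on chip b with just these 3) or with GRM6 (2, 3, 1 and 1 cells). Of the 83 cells of day 90 with at least 2 genes, 43 were photoreceptor-list cells, 56 precursor-list cells and 17 pigment-list cells. Scrublet called 1, 0, 22 and 2 cells of the 4 chips doublets, and 3 of the 28 cells of chip a with at least 2 genes were among them.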

How the data were processed

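Full-length cDNA (SMART-Seq v4, no molecular identifiers) of single cells was sequenced in read pairs of 2 x 75 bases. Per the labels, the authors used Trimmomatic 0.33, STAR 2.4.0, HTSeq 0.6 and GRCh38.p7, and the paper names GENCODE 25 and filters on cells and genes in Scater. The deposited values are raw read counts per gene and cell, without normalization. The row named GFP-Spike stayed out of library sizes.

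Cells were mapped to chip columns by their names. Levels are CPM of summed counts, and folds use a pseudocount of 1 CPM over genes with a mean of at least 1 CPM. Cells were thinned to 50000 reads, and chips were described by shares with exact binomial (Clopper-Pearson) or Poisson intervals. No test was made, as day 60 and day 90 have 1 chip each and the 2 day 200 chips leave 1 degree of freedom. Named are the 7 genes, genes of 13 lists, and, for each of the 7, the 3 genes with the highest mean Pearson r of ln(1 + 10000 x count / total) over the 3 later chips among genes read in at least 2% of the cells. The genes and lists were chosen with earlier results of these data known. Exon lengths, positions and overlaps are from GENCODE 44. All cells were kept, and doublets (scrublet in scanpy 1.11.5) were removed as an alternative. Other alternatives were 25000 reads, no thinning, at least 3 reads, 2 or 4 list genes, a pseudocount of 10 CPM, no minimum, spike-in reads in the totals, means over cells, TMM scaling (edgeR 4.0.16, R 4.3.3) and leaving out each day 200 chip. Python 3.11.15, numpy 2.4.6, pandas 2.3.3, scipy 1.17.1 and matplotlib 3.10.9 were used. The fold step was tested on simulated data. Some list genes are not analysed or not reported here.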

Additional observations from a re-analysis of the deposited data

Results flagged for a closer look

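The row named GFP-Spike, which entered no comparison, was listed at 0 at day 60 and at day 90. A listed 0 allows reads in up to 4 cells of a chip. It was read in 45.8% of the cells of chip a and 24.9% of the cells of chip b. The GFP-Spike row was read in 80.9% of the photoreceptor-list cells of chip a against 29.05% of the other cells, and in 74.6% against 14.3% on chip b. Of cells with clear reads of CABP5, 70% (45.7% to 88.1%) held it on chip a against 44.3%, and 66.7% (44.7% to 84.4%) on chip b against 22.1%. For LHX4 the shares were 47.2% against 45.6% on chip a and 50% against 21.0% on chip b, and for VSX1 they were 50% against 45.4% and 44.8% against 23.3%. Whether these reads came from the reporter of the line or from an added spike was not tested.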

How the results depend on the processing

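No paired analysis was possible because the results come from no test. The share of cells with at least 2 of the genes depended on depth: it was 15.5% at day 90 and 11.0% at day 200 with 25000 reads per cell, 25.6% and 24.02% without thinning, and 12.7% and 8.41% with at least 3 reads a gene. The share of photoreceptor-list cells with VSX1 was 16.3% at day 90 with at least 3 reads and 20.6% at day 200 without thinning. Leaving out a day 200 chip gave 10.4% to 16.4% for that share and 5 to 7 genes at least 2-fold above day 60. CABP5 and TRPM1 were again counted from their listed 0. A pseudocount of 10 CPM left 6 of the 7 genes above that limit, as did the mean over cells, and the log2 difference of GRIK1 was then 0.41 with the pseudocount. In all, 33 alternatives to these main results moved a share by less than its interval or a count by less than 1.5 times. They include those that left out a day 200 chip, the pseudocount of 10 CPM and the mean over cells. The share of photoreceptor-list cells with VSX1 was lower at day 60 (15.8%) than at day 90 (22.03%). That order reversed with 4 list genes (25% against 18.2%) and with 25000 reads per cell (20% against 19.7%). Depth limits each share: at 50000 reads, 1 read is a level of 20 CPM.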

Other observations

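Of the other lists, cone genes were at least 2-fold above day 60 in 8 of 8 at day 90 and in 7 of 8 on each day 200 chip, and rod genes in 5, 8 and 6 of 9. Precursor genes were so in 5, 4 and 4 of 6, pigment epithelium genes in 7, 3 and 4 of 8, matrix genes in 5, 1 and 7 of 8 and glia genes in 3, 6 and 6 of 8. Amacrine genes were so in 2, 3 and 4 of 7 and horizontal genes in 2 of 6 on each later chip. Ganglion and early neuron genes were at least 2-fold lower in 5, 6 and 7 of 8, and mitotic genes in 6 of 6 on each later chip. Of all genes, 12.3%, 14.2% and 12.8% were at least 2-fold above day 60 at day 90 and on chips a and b, and 8.84%, 18.2% and 8.07% at least 2-fold lower.

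Cells with 1 or 2 reads of GRM6 lay more often in columns that held a cell with at least 50 reads of it: 70.6% of them at day 90, and 77.3% and 83.3% on chips a and b, against 42.6%, 44.1% and 38.5% of the cells without a read. For TRPM1 the shares were 96.4% against 89.0% at day 90, 76.5% against 47.9% on chip a and 46.7% against 26.2% on chip b. For VSX1 they were 70.6% against 76.4% on chip a and 50% against 49.9% on chip b. The reason was not tested, and the values given for clear reads leave out cells with so few reads.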
